A study of Mus musculus with 2 samples.

Results

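A set of 8 prostanoid receptor genes, Ptger1, Ptger2, Ptger3, Ptger4, Ptgir, Ptgfr, Ptgdr and Tbxa2r, were followed in RNA sequencing of CE1-4, a mouse prostate cancer cell line. The genes were taken by symbol, by a rule that names no measured value but was set with earlier results of these data known, and each of the 8 matched 1 of the 23420 symbols in the count table. The study sequenced 1 library of untreated CE1-4 cells and 1 library of CE1-4 cells exposed to prostaglandin E2 (PGE2) for 6 h. Both libraries come from the same line, and the labels name no vehicle, PGE2 dose, genotype or clone, nor a time in culture for the untreated cells. The series title places the cells in work on COX-2 and prolactin in tumor and stroma. With 1 library per group nothing below has a replicate check, no p-value was computed, and vehicle, time in culture and PGE2 cannot be told apart.

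Prostanoids are short-lived lipids made from arachidonic acid by the cyclooxygenases and then by a terminal synthase for each product, and they act on nearby cells through G protein-coupled receptors. PGE2 has a family of receptors of its own: EP1 (Ptger1) raises intracellular calcium, EP2 (Ptger2) and EP4 (Ptger4) couple to Gs and raise cAMP, and EP3 (Ptger3) couples mainly to Gi and lowers it. Prostacyclin is read by IP (Ptgir) through Gs, prostaglandin D2 by DP1 (Ptgdr) through Gs, prostaglandin F2-alpha by FP (Ptgfr) through Gq, and thromboxane A2 by TP (Tbxa2r) through Gq and the G12 class. Which of these a cell carries therefore sets the second messengers that a given prostanoid can reach in it.

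Of the PGE2 receptors, EP4 was the one with substantial transcript in CE1-4. Ptger4 had 431 counts untreated and 492 counts with PGE2. Expressed in RPKM, that is CPM (counts divided by the scaled library total) per kilobase of annotated exon, the scale on which genes of different length are compared here, Ptger4 stood at 3.84 (95% counting interval 3.49 to 4.23) untreated and 4.20 (3.83 to 4.59) with PGE2. The other Gs-coupled PGE2 receptor, Ptger2, had 1 count in each library, 0.0114 RPKM (0.000289 to 0.0636) untreated and 0.0109 RPKM (0.000277 to 0.0609) with PGE2. The calcium-linked receptor Ptger1 had 25 and 30 counts, 0.272 RPKM (0.176 to 0.401) and 0.312 RPKM (0.210 to 0.445). Ptger3, the Gi-coupled receptor, had 0 counts in both libraries. Intervals are exact Poisson limits and, like every interval and limit below, cover counting error only.

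Of the 4 listed receptors of other prostanoids, FP alone had counts. Ptgfr had 84 counts untreated and 83 with PGE2, a level of 0.735 RPKM (0.586 to 0.910) and 0.695 RPKM (0.553 to 0.861). Ptgir, Ptgdr and Tbxa2r had 0 counts in both libraries. Taking 3 counts as the limit that a count of 0 allows, each of the 4 genes without counts could lie at up to 0.178 CPM untreated and 0.170 CPM with PGE2, or 0.0870 CPM over both libraries together. In RPKM untreated that limit is 0.0313 for Ptger3, 0.0534 for Ptgir, 0.0558 for Ptgdr and 0.0927 for the short Tbxa2r. These receptors were thus not detected at this depth, which does not show that they are absent. The annotation used for counting is not given, and the limits assume that reads of each gene could be counted. In the table as a whole, 7721 symbols (33.0%) had 0 counts in both libraries, so a count of 0 is a common state of a gene in these libraries.

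**Figure D1:**
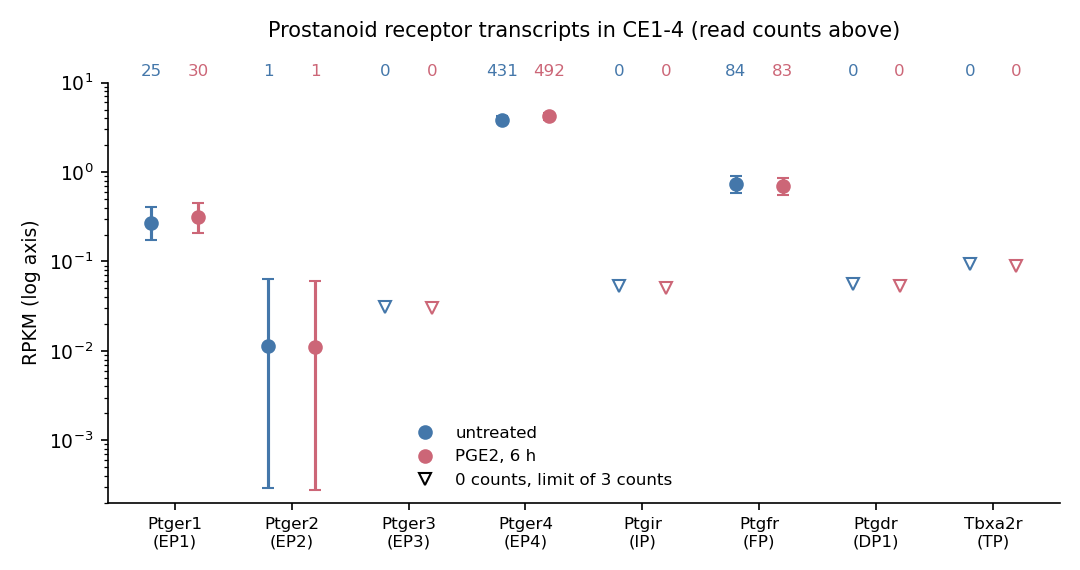
Level of each prostanoid receptor transcript in RPKM on a log axis, with the untreated library in blue and the PGE2 library in red, bars for the 95% counting interval, open triangles for the limit of 3 counts where a gene had 0 counts, and the counts themselves printed above. Ptger4 lies highest in both libraries at 3.84 and 4.20 RPKM, with Ptgfr and Ptger1 below it, and the blue and red points of each gene lie close together.

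By RPKM Ptger4 was highest and Ptger2 lowest of the 4 receptors with counts in both libraries. Ptger4 was 5.23-fold (4.13 to 6.69) above Ptgfr untreated and 6.04-fold (4.78 to 7.72) above it with PGE2. Ptger1 was 23.8-fold (3.89 to 976) above Ptger2 untreated and 28.5-fold (4.74 to 1164) with PGE2, ratios that rest on a single count of Ptger2 in each library. Both of these pairs differed beyond counting error with exon length as annotated. The level of Ptger1, and the shares below that include it, also carry the uncertainty in counting given below with the gene positions. For the receptors at 0 the limit of 3 counts per library was used. In the untreated library Ptger4 was 122.9-fold above the limit of Ptger3, 72.0-fold above that of Ptgir, 68.9-fold above that of Ptgdr and 41.5-fold above that of Tbxa2r. These folds leave out the counting error of Ptger4 itself and are not strict lower bounds.

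Summed over the family, Ptger4 made up 79.1% of receptor RPKM untreated and 80.5% with PGE2, Ptgfr 15.1% and 13.3%, and Ptger1 5.59% and 5.98%. By counts alone Ptger4 held 431 of 541 receptor counts untreated, 79.7% (exact binomial interval 76.0 to 83.0), and 492 of 606 with PGE2, 81.2% (77.8 to 84.2). Within the PGE2 receptors its part was 93.1% of RPKM untreated and 92.9% with PGE2. The length assigned to Ptger4 matters for these shares, because its annotated exons together span 6648 bases and its longest transcript 3771. With the longest transcript of each gene as the length, the share of Ptger4 was 86.2% and 87.2%.

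Ptger1 lies at chromosome 8, 83666678 to 83672753, plus strand, in GENCODE M21 on GRCm38. Whether Ptger1 overlaps other genes is not reported here. Ptger4 (chromosome 15, 5206661 to 5244187, minus strand) overlaps Ttc33 on the opposite strand by 82 exon bases and the processed pseudogene Gm15937 by 1015, or 15.3% of its exon length, neither within its coding bases. Ttc33 had 1191 and 1302 counts. Ptgfr (chromosome 3, 151796502 to 151837630, minus strand) shares 4.85% of its exon length with Gm43618. Ptger2 and Ptgdr lie near each other on chromosome 14 (44988195 to 45003820 and 44851235 to 44859375) and overlap noncoding or pseudogene models on the opposite strand, for Ptgdr the pseudogene Gm16976 over 705 exon bases, or 22.1% of its exon length, 583 of them coding. The remaining genes, Ptger3 (chromosome 3, 157566892 to 157645888), Ptgir (chromosome 7, 16906490 to 16910905) and Tbxa2r (chromosome 10, 81328731 to 81335172), overlap no other annotated gene. No source used here gives the strand setting of the counting or its treatment of bases shared between genes, so each RPKM, which divides by the whole annotated exon length, and the limit for Ptgdr at 0 carry an uncertainty beyond the counting interval. By RPKM Ptgfr was 2.71-fold (1.71 to 4.42) above Ptger1 untreated and 2.23-fold (1.45 to 3.51) with PGE2, the smallest fold between neighbors by level. With the longest transcript as length Ptgfr was still above Ptger1, 2.38-fold (1.51 to 3.89) untreated and 1.96-fold (1.28 to 3.08) with PGE2. Given the uncertainty in how reads were counted, the RPKM order of this pair, in the text and figures, is not read as an order of transcript level.

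The 250 bases before the annotated start are shown for the most abundant receptor and for a pair of receptors without counts, to show starts with many CpG, one of a gene with counts and one of a gene without, beside a start without counts whose CpG number is close to the median of all starts. The sequences are from RefSeq on GRCm38.p6, written 5′ to 3′ on the strand of the gene, with CpG dinucleotides in capitals. Ptger4 is chr15:5244188-5244437 (minus strand), Ptger3 chr3:157566626-157566875 (plus strand) and Ptgir chr7:16906240-16906489 (plus strand).
Ptger4: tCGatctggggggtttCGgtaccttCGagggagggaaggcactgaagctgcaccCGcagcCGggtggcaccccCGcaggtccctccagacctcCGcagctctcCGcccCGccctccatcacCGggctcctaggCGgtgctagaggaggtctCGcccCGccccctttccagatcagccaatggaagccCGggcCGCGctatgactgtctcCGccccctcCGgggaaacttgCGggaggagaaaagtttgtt
Ptger3: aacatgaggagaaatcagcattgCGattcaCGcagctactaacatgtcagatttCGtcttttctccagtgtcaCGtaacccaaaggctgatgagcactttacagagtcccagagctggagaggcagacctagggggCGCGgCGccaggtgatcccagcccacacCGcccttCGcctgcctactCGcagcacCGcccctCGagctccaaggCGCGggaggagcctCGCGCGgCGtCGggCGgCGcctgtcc
Ptgir: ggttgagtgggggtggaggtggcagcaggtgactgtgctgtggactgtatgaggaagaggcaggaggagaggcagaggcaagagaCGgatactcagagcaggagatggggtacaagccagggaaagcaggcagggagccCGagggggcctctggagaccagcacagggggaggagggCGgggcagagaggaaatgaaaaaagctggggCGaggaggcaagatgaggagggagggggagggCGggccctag

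The Ptger4 stretch holds 19 CpG and is 66.8% G and C, and 19.7% of all 32841 RefSeq starts hold at least as many CpG. Ptger3, which had no counts, holds 21 CpG, a number reached by 16.4% of starts. Ptgfr holds 10 and Ptgir 5, and the median over all starts was 6. The fewest CpG were in Ptgdr, with 2, and in 1 of the 2 starts of Tbxa2r, with 1. RefSeq gives 8 starts for 7 of the receptors, and Ptger1 has no entry in that table. None of the 8 starts holds the full cAMP response element TGACGTCA, found on either strand in 1.55% of all starts. The shorter TGACG, which is also part of the full element, occurs in 1 of the 2 starts of Tbxa2r and in none of the other receptor starts, against 17.8% of all starts. The GC box GGGCGG occurs 4 times before Ptger4, 3 times before Ptger3, 2 times before Ptgir and 1 time before Ptgfr, and in 32.7% of all starts at least once. TATAAA, present in 12.4% of starts, occurs before none of the receptors. These are descriptions of letters in a window and say nothing of factor binding.

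After 6 h with PGE2 the receptor transcripts were close to their untreated levels. Ratios are given as log2 of PGE2 over untreated CPM, scaled by TMM, each with the exact 95% binomial limits that its counts allow. Ptger4 had a log2 ratio of 0.13 (-0.06 to 0.32), a 1.09-fold level (0.957 to 1.25). Ptgfr had a log2 ratio of -0.08 (-0.54 to 0.37), or 0.945-fold (0.689 to 1.30). Ptger1 had a log2 ratio of 0.20 (-0.62 to 1.03), or 1.14-fold (0.652 to 2.04). All 3 intervals include a ratio of 1. Those of Ptger4 and Ptgfr exclude a 2-fold difference in both directions, whereas that of Ptger1 does not exclude a 2-fold higher level. No fold is given for Ptger2, with 1 count in each library, or for the 4 genes at 0.

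Only Ptger1, Ptger4 and Ptgfr reached 1 CPM in at least 1 library, the minimum for a gene to be assessed, so 5 of the 8 receptors were not. A gene was called when its ratio was at least 2-fold with an interval excluding 1. None of the 3 receptors was called, against 0.307% of the 11387 genes assessed (35 genes, 0.0527% called as higher and 0.255% as lower). None had an interval excluding 1, against 12.3% of genes (6.61% above and 5.65% below 1). A share of 0 of 3 is near those background shares and is no result about the receptors.

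The receptors' ratios can be read beside genes with similar counts. Among 2214 genes with 616 to 1384 counts in both libraries together, within 1.5-fold of the 923 of Ptger4, log2 ratios had a standard deviation (SD) of 0.109 around a median of -0.01. The 0.13 of Ptger4 is a little over that SD. Among 1251 genes near the 167 counts of Ptgfr the SD was 0.234, and among 834 genes near the 55 counts of Ptger1 it was 0.406, both larger than the receptor's own ratio. The balance between EP4 and FP was 5.13 Ptger4 counts per Ptgfr count untreated and 5.93 with PGE2, a 1.16-fold difference with an interval of 0.819 to 1.63.

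For prostacyclin and thromboxane neither the synthase nor the receptor gene had a count. Ptgis, the prostacyclin synthase gene, and Tbxas1, the thromboxane synthase gene, had 0 counts in both libraries, as had the IP and TP receptor genes. For prostaglandin D2, the synthase gene Ptgds had 0 counts and Hpgds 9 and 4. The second receptor of prostaglandin D2, Ptgdr2, had 0 and 3 counts. For PGE2, the inducible synthase gene Ptges had only 10 and 7 counts, whereas Ptges2 had 158 and 205 and the cytosolic Ptges3 10966 and 12833. Whether the Ptges2 and Ptges3 products make PGE2 in these cells was not tested. The cyclooxygenase genes Ptgs1 and Ptgs2 were at 144 and 902 RPKM untreated. On the side of prostaglandin F2-alpha, Prxl2b, which encodes a prostamide and prostaglandin F synthase, had 11 and 18 counts and Cbr1, a carbonyl reductase gene, 276 and 291. The aldo-keto reductase genes of the same list differed widely, with 2905 and 3117 counts of Akr1b8, or 115 RPKM untreated against 6.41 of Cbr1, and 0 counts of Akr1b3 in both libraries. Whether the Akr1b8 product makes prostaglandin F2-alpha in these cells was not tested. The annotation used for counting is not given, and the 0 of Akr1b3 does not show that it is absent. These lists were chosen with earlier results of these data known.

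Of the 13 listed genes that make prostanoids from arachidonate, 7 were assessed and 0 called, with a median log2 ratio of 0.04 against -0.0014 over all genes. Their intervals lay above 1 for 2 of the 7 genes, against 6.61% of all genes assessed, Ptges3 (0.16, 0.13 to 0.20) and Ptges2 (0.31, 0.0050 to 0.62). In this list and those that follow, intervals that exclude 1 are to be read against the 12.3% of all genes that have one (6.61% above and 5.65% below 1), and nothing particular to a list is read from them. All 5 matched genes of prostanoid transport and breakdown were assessed, with 0 called, 0 intervals excluding 1 and a median of -0.11. Among them were the uptake transporter gene Slco2a1 (4.63 RPKM untreated, log2 ratio -0.12, -0.24 to 0.01), the export pump gene Abcc4 (21.5 RPKM, 0.00015, -0.08 to 0.08) and Hpgd, whose product inactivates PGE2 and prostaglandin F2-alpha (7.05 RPKM, -0.30, -0.60 to 0.0035). The highest of this list by RPKM untreated were Ptgr1 (30.0) and then Abcc4 and Ptgr2 (10.5), the Ptgr genes encoding prostaglandin reductases.

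**Figure D2:**
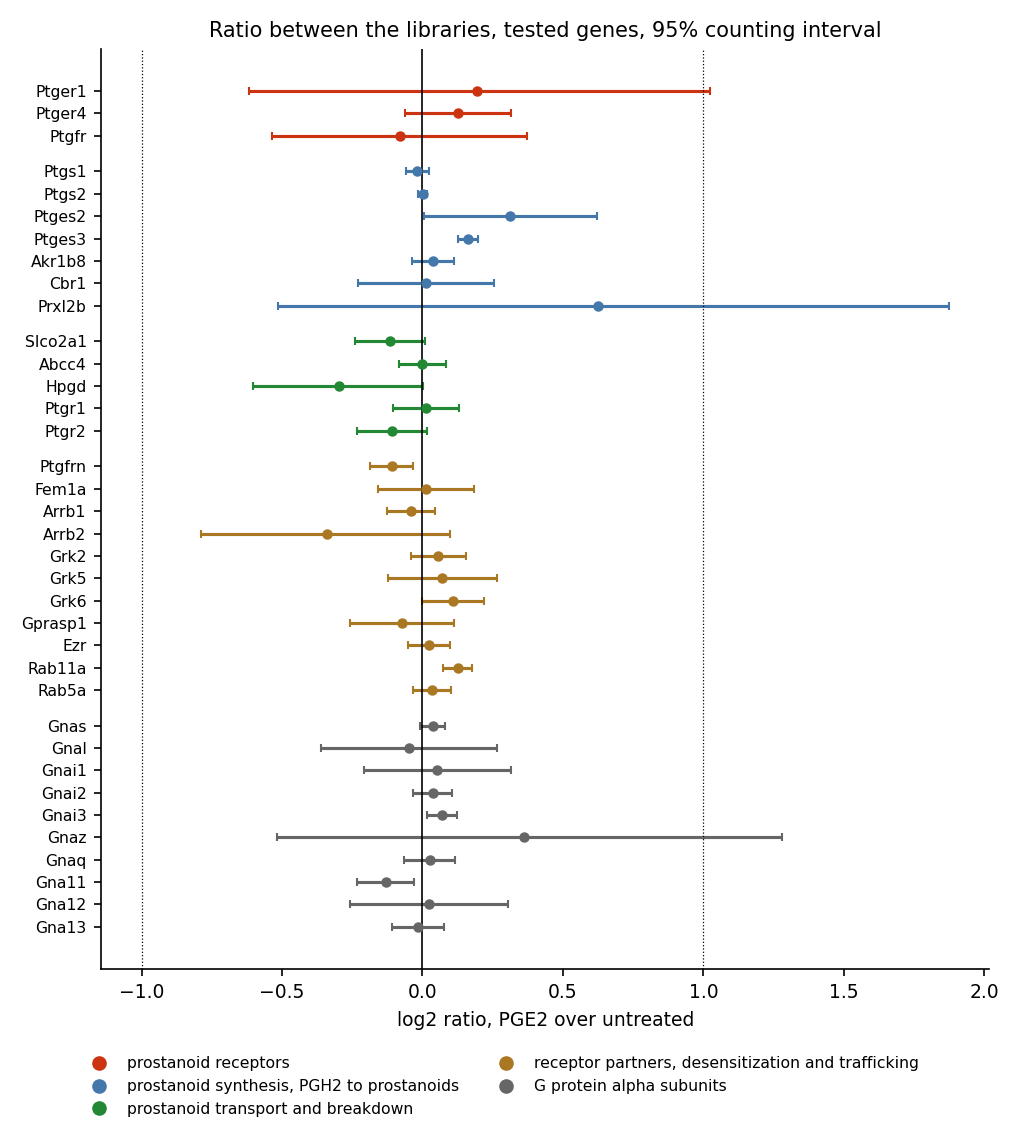
Log2 ratio of PGE2 over untreated for the receptors and for the assessed genes of prostanoid synthesis, transport and breakdown, receptor partners and G protein alpha subunits, with 95% counting intervals and dotted lines at 2-fold. The 3 receptor intervals cross 0, and no gene shown was called.

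Of 12 matched genes acting with the receptors, 8 lay above Ptger4 by RPKM in the untreated library and 4 below it, Arrb2, Grk5, Gprasp1 (3.53 RPKM) and Grk3. The counting intervals of Grk5 (3.21 to 3.89) and Gprasp1 (3.22 to 3.86) overlap that of Ptger4 (3.49 to 4.23). Of these 12 partner and trafficking genes 11 were assessed and 0 called, with a median log2 ratio of 0.02. Ptgfrn, which encodes a membrane protein that associates with and dampens FP, stood at 16.3 RPKM untreated and had an interval below 1 (log2 ratio -0.11, -0.19 to -0.03). Rab11a, a small GTPase gene of receptor recycling, had an interval above 1 (112 RPKM, 0.13, 0.07 to 0.18). The arrestin genes Arrb1 and Arrb2, whose products bind phosphorylated receptors, were at 12.1 and 2.02 RPKM untreated. The receptor kinase genes Grk2, Grk6 and Grk5 were at 21.2, 18.0 and 3.54 RPKM, and Grk3 had 0 counts in both libraries. Fem1a, which encodes an EP4-associated protein, was at 4.84 RPKM untreated, beside 3.84 for Ptger4. With the longest transcript as length Ptger4 was at 6.78 and Fem1a at 4.84, so Fem1a then lay below it.

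The G proteins of each receptor class were represented. Gnas, which encodes the Gs alpha subunit used by EP4, was at 42.5 RPKM untreated and 43.6 with PGE2, and the Gi genes Gnai3 and Gnai2 at 103 and 52.8 RPKM untreated. The Gq class genes Gna11 and Gnaq were at 24.2 and 18.1 RPKM, and Gna13 and Gna12 at 17.6 and 3.61 RPKM. The order of Gnas and the Gi genes depends on length and is not read as an order of transcript level. With the longest transcript as length, untreated Gnas (120.4) lay above Gnai3 (103) and Gnai2. By counts untreated, Gnas had 8012, Gnai3 5663 and Gnai2 3363. Of the 13 alpha subunit genes 10 were assessed and 0 called, with a median log2 ratio of 0.03. Gnai3 had an interval above 1 (0.07, 0.02 to 0.12) and Gna11 an interval below 1 (-0.13, -0.23 to -0.03).

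Further along the Gs route, 16 of 22 adenylyl cyclase, protein kinase A and CREB coactivator genes were assessed. None was called, none had an interval excluding 1, and the median was 0.02. The cyclase genes highest by RPKM were Adcy9 and Adcy6 at 6.89 and 5.15 untreated, and the kinase subunit genes Prkar1a, Prkaca and Prkacb were at 95.1, 19.1 and 13.9. On the Gq route 9 of 11 genes were assessed with 0 called, 0 intervals excluding 1 and a median of -0.0040, and the highest were Itpr3 (18.5 RPKM), Plcb3 (14.4) and Prkca (10.6), for a calcium release channel, a phospholipase and a protein kinase C. These orders depend on length. With the longest transcript as length, untreated Prkacb (28.0) lay above Prkaca (20.8) and Plcb3 (21.9) above Itpr3 (18.5). Prkcd (16.9), another protein kinase C gene, then lay above Prkca (11.4). Among 19 genes known to respond to cAMP, 16 were assessed and 0 called, with a median of -0.05, Areg above 1 (0.15, 0.09 to 0.21) and Fosb below 1 (-0.49, -0.92 to -0.07). Areg, Vegfa and Cebpb were the highest of them at 198, 26.0 and 15.7 RPKM untreated. Nuclear receptor genes listed for a link to prostanoid derivatives were also present, and ligand binding of their products was not measured. Pparg was at 22.6 RPKM untreated with an interval below 1 (log2 ratio -0.22, -0.34 to -0.10), the 1 such gene among 4 assessed of 5. Rxra and Rxrb were at 4.26 and 2.40 RPKM, and the median of the 4 was -0.18.

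Set among the other receptors listed, Ptger4 ranked high, but among all 23420 symbols it ranked 5776 by counts untreated and 5517 with PGE2. Over all symbols, 33.0% had 0 counts in both libraries and 11387 reached 1 CPM in at least 1 library. Of 43 other Gs-coupled receptor genes, 31 had 0 counts in both libraries and 2 reached 1 CPM, among them Adora2b for an adenosine receptor. Ptger4 was 3.52-fold (2.48 to 5.15) above Adora2b by RPKM untreated and 3.33-fold (2.42 to 4.70) above it with PGE2. No gene of that list lay above Ptger4 by RPKM in either library. Of 35 other lipid mediator receptor genes, 15 had 0 counts in both libraries and 7 reached 1 CPM. By RPKM Ptger4 was second to Lpar6, a lysophosphatidic acid receptor gene, at 0.801-fold of it (0.700 to 0.917) untreated and 0.956-fold (0.837 to 1.09) with PGE2, so the pair was not separated beyond counting error in the PGE2 library. Lpar6 lies within Rb1 on the opposite strand and shares 408 exon bases with it. With the longest transcript as length Ptger4 ranked first. The next genes below were Lpar1, with Ptger4 2.24-fold (1.83 to 2.76) above it untreated, and S1pr1, a sphingosine-1-phosphate receptor gene, with Ptger4 3.35-fold (2.55 to 4.47) above it.

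None of the 7 lipid mediator receptor genes and neither of the 2 Gs-coupled genes assessed was called or had an interval excluding 1. Their median log2 ratios were -0.13 and 0.23, the latter over only 2 genes with few counts. With 2 libraries a correlation of patterns has no meaning, so likeness to Ptger4 is given by level only, through these nearest genes.

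**Figure D3:**
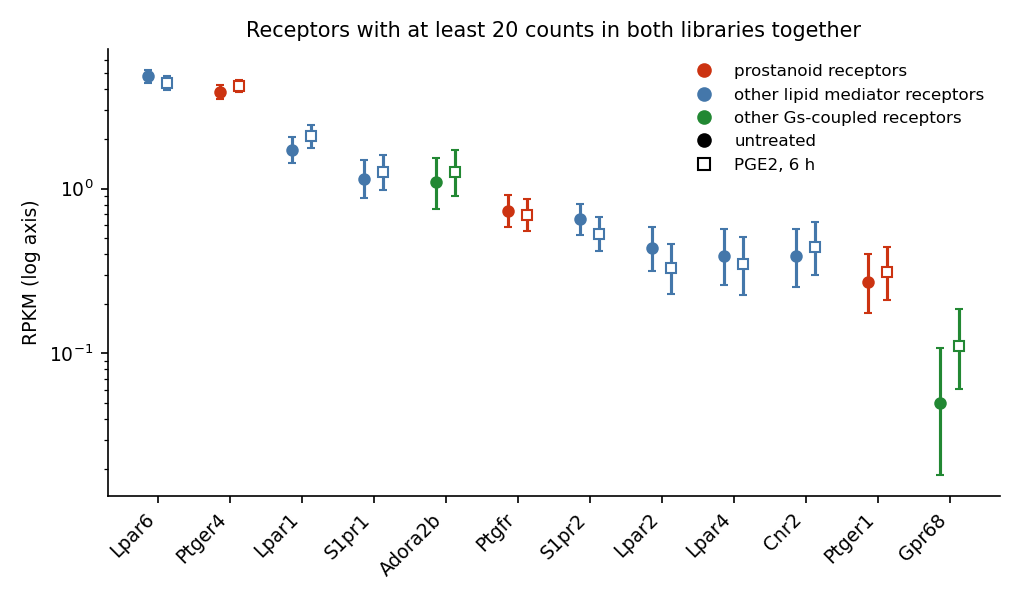
RPKM on a log axis, highest first in the untreated library, for prostanoid receptors (red), other lipid mediator receptors (blue) and other Gs-coupled receptors (green) whose counts in both libraries sum to 20 or more, 1 of the latter not shown, with 95% counting intervals, filled circles for untreated and open squares for PGE2. Ptger4 stands beside Lpar6 at the top, Ptgfr in the middle and Ptger1 near the lower end.

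The libraries held 16908429 counts untreated and 17582808 with PGE2. Several receptors with few or no counts here are known from blood, vessel and muscle cells, so markers of such cells were read in the same way. What the markers mean for the receptor counts in this cell line was not tested. In a bulk library fewer cells of a type and less RNA per cell cannot be told apart. None of 7 leukocyte, 5 endothelial or 5 mast cell markers reached 1 CPM, with summed levels of 0.356 and 0.340 CPM, 0.119 and 0.227 CPM, and 0.297 and 0.113 CPM, and Cd3e, Cdh5 and Cpa3 at 0 in both libraries. Of 5 platelet markers 1, Gp1ba, reached it with 21 and 25 counts (summed level 1.90 and 2.33 CPM), and Gp9 was at 0. Smooth muscle had 2 of 5 markers (4.86 and 5.05 CPM) and fibroblasts 2 of 5 (11.4 and 9.02 CPM, Lum at 0). Luminal epithelial markers summed to 2040.5 and 2079 CPM with 4 of 6 at 1 CPM or more, among them Krt8, Krt18 and Hoxb13, while Pbsn, a gene of differentiated prostate luminal cells, was at 0 in both libraries. Basal markers had 2 of 4 (20.04 and 21.8 CPM). No marker of these lists was called, and Krt18 alone had an interval excluding 1 (log2 ratio 0.04, 0.0028 to 0.07).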

How the data were processed

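Stranded total RNA libraries were made from column-purified RNA, per the labels' protocols. Trimmomatic, TopHat2, Bowtie, HTSeq and mm10 are named in the submitters' processing notes; versions, annotation and strand setting are not given by the sources used here. Per gene symbol, the deposited table gives raw counts, with 1 column per library and no normalization by the authors, per the file headers and values. Columns were tied to samples by title.

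Library sizes were scaled by TMM (edgeR 4.0.16, R 4.3.3; factors 0.997 untreated, 1.003 PGE2), so 1 CPM was 16.9 and 17.6 counts. Log2 ratios used a prior of 0.5 counts. Genes at 1 CPM or more in at least 1 library were assessed and called at 2-fold with a 95% interval excluding 1. RPKM used the union of GENCODE M21 exons, found for 98.4% of symbols. Members and lists were chosen with earlier results of these data known. Of 230 entries in 19 lists, 228 matched a row, 9 through a RefSeq synonym. Named genes were all receptors and, per list, those called, those whose interval excluded 1 and the 3 highest by RPKM, with nearest neighbors of Ptger4 by level; other genes were chosen after their values were seen. For the marker lists these are given in part, and values of some genes are not reported here. Alternatives were 3 scalings, a prior of 5, folds of 1.5 and 1.2, minimums of 0, 0.5 and 5 CPM, a 99% interval and other lengths.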

Additional observations from a re-analysis of the deposited data

How the results depend on the processing

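None of the receptors was called, and none had an interval excluding 1, under TMM or under any of the 10 alternatives run. The 15 alternative log2 ratios of Ptger1, Ptger4 and Ptgfr lay inside their counting intervals, between 0.17 and 0.20, 0.13 and 0.13, and -0.08 and -0.07. At a minimum of 5 CPM 1 receptor, Ptger4, was assessed. The 35 called genes of the whole table became 13 with a prior of 5, 94 at 1.5-fold, 330 at 1.2-fold, 83 without a minimum, 69 at 0.5 CPM, 1 at 5 CPM and 15 with a 99% interval. With the longest transcript as length the Ptger4 share of receptor RPKM was 86.2% untreated and 87.2% with PGE2, and its rank among lipid mediator receptors 1 in both libraries, as by counts in the PGE2 library, in place of 2. With 1 library per group no replicate could be left out. No paired analysis was possible because each group holds 1 library. Depth limits the 4 receptors at 0 and Ptger2, and Ptger1 in part. The annotation used for counting, which is not given, is a further limit on the receptors at 0.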
